A study of Mus musculus with 24 samples.

Results

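The transcripts described here are those of 9 immediate early genes, Jun, Junb, Jund, Fos, Fosb, Atf3, Egr1, Ier2 and Zfp36, measured along the villi of the mouse jejunum. They were chosen by symbol from the 17811 genes of the deposited count table, and all 9 were found and passed the filter on low counts that left 9328 genes for testing. Immediate early genes are transcribed within minutes of a stimulus such as a growth factor or a stress, without new protein synthesis, and their messenger RNAs are usually short-lived. JUN and FOS proteins pair into the AP-1 transcription factor, which binds the TPA response element and the related cyclic AMP response element (CRE). In the intestinal epithelium, cells divide in the crypts, move up the villus as enterocytes and goblet cells, and are shed at the tip, so position on the villus is also time since the crypt.

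The epithelium was released with EDTA from the jejunum of 4 male C57BL/6 mice aged 10 weeks and fed regular chow, and no mouse was genetically altered or treated as far as the labels say. Cells of each mouse were stained with antibodies to CD73 and CD26, surface enzymes whose level depends on villus height, and sorted into 6 zones named V1 (most bottom), V2 (bottom), V3 (bottom-middle), V4 (middle), V5 (middle-tip) and V6 (tip). Each of the 24 libraries is polyadenylated RNA read at the 3' end by mcSCRB-seq, a bulk method that tags each captured molecule with a unique molecular identifier (UMI), so a count is a number of molecules. The 4 libraries of a zone come from 4 separate mice, and the comparison implied by the design is that between villus heights.

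Libraries held 806541 to 2266261 UMIs, and values below are CPM, UMIs of a gene relative to the TMM-scaled size of its library. Summed transcripts of 10 enterocyte markers averaged 16994 CPM in V1 and 85606 CPM in V6, and those of 8 goblet cell markers 72504 CPM in V1, 11614 CPM in V3 and 11376 CPM in V6. The label of enterocytes therefore holds least well in V1, where goblet cell transcripts exceeded those of enterocytes, and in V2, where the sums were 36604 and 36446 CPM. Summed transcripts of 6 markers of Paneth cells, which belong to the crypt, averaged 10906 CPM in V1 and 7036 CPM in V6. In V5 they averaged 16130 CPM and ranged from 4099 to 32053 CPM over the 4 libraries. Summed transcripts of 12 leukocyte markers ranged from 6.86 to 59.4 CPM over the 4 V1 libraries and from 247 to 294 CPM over the 4 V6 libraries. None of these 12 markers had a mean of 0 in V1 or V6, and 4, Gzma, Gzmb, Cd7 and Ccl5, passed the filter on low counts, which these scarce transcripts could pass through the zones where they are high. Of 10 stromal and endothelial markers, 8 were in the table, and they had sums of 9.48 ± 1.35 CPM at the bottom and 13.9 ± 3.79 CPM at the tip (SD, n = 4), with Col3a1 at 0 in both zones. Summed transcripts of 7 enteroendocrine markers averaged 2222 CPM in V1, 629 CPM in V4 and 4402 CPM in V6, and 5 of the 7 rose over V4 to V6. The share of UMIs from mitochondrial genes was 3.31% ± 0.886 at the bottom and 8.10% ± 1.21 at the tip (SD, n = 4), and its highest mean was 9.45%, in V4. Enterocyte, goblet cell, leukocyte and enteroendocrine transcripts and the mitochondrial share moved along the same axis as the genes described below. The part of these and of the other cell type transcripts in the results was not tested. The study's design text says that sequencing was done in several batches. A deposited sample sheet has a column headed as an Illumina i7 barcode, which was read here as a pool label although the header does not say so. Read so, it put the 6 zones of a mouse in 1 pool, except that V1 of mouse 2 carried the barcode of mouse 1, so slopes within mice would also be slopes within pools apart from that library. In such bulk samples, fewer cells of a type and less RNA per cell cannot be told apart.

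Of the 9 genes, 7 rose from the bottom of the villus to its tip: Jun, Junb, Fos, Fosb, Atf3, Egr1 and Zfp36. The test was edgeR's quasi-likelihood test of the slope of log2 expression per zone, with p-values adjusted by Benjamini-Hochberg over the 9328 genes and a threshold of 0.05, and 22.1% of all genes tested rose by it. No member fell, while 22.8% of all genes did. With libraries scaled by total UMIs in place of TMM, 7 of the 9 rose and 1, Ier2, fell, beside 13.0% of all genes rising and 39.9% falling. The median slope of the 9 genes was 0.38 on the log2 scale per zone, beside -0.0047 for all genes tested. Between the 2 ends of the villus, 6 of the 9 were higher in V6 than in V1 and none lower, beside 20.2% of all genes higher and 18.6% lower. The design allows the mouse as a block, because the 6 zones of a mouse come from the same animal. With it, 8 genes were higher in V6, with Jund and Atf3 added, and Ier2 was lower. Of all genes, 26.7% were higher and 24.7% lower with the block. By the slope over V1 to V6, 8 rose with the block, with Jund added, and none fell. The shares of all genes were then 27.6% rising and 27.8% falling. Without the V1 library of mouse 2, which stood apart from the others of its mouse in this column, the same 7 genes rose over the villus, the weakest call being that of Atf3 (slope 0.33, adjusted p = 0.0380). In 5 genes, Jun, Junb, Fos, Fosb and Zfp36, every V6 library lay above every V1 library, which held for 17.9% of all genes tested. Of these, Fosb passed the filter on low counts only through V4 to V6, where it is high, so its rise is no independent support.

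**Figure D1:**
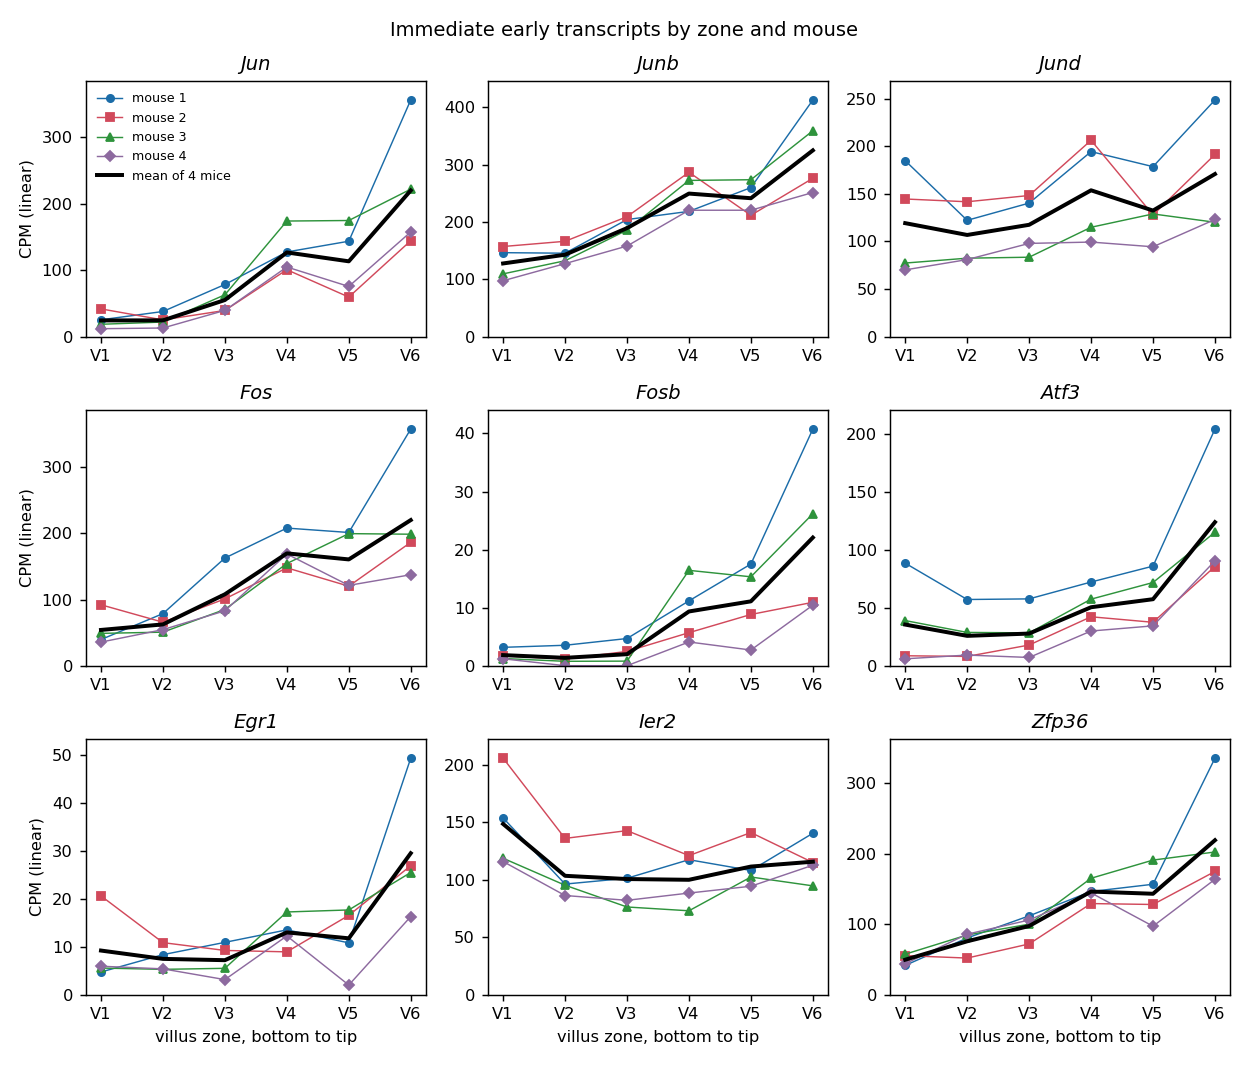
Level of each of the 9 transcripts (vertical axis, CPM, linear, from 0) in the 6 villus zones from bottom to tip (horizontal axis); coloured lines with markers are the 4 mice and the black line is their mean. Jun, Junb, Fos, Fosb and Zfp36 in V6 lie above every V1 library, and Ier2 is highest in V1 in 4 of 4 mice. Levels of Jund and Atf3 differ between mice, with some lines crossing, and mouse 1 is highest for Atf3 in every zone.

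Jun encodes c-JUN, the AP-1 subunit that both pairs with FOS proteins and activates its own gene. On GRCm38 the gene spans 95049034 to 95052222 of chromosome 4, minus strand. From V1 to V6, mouse 1 had 25.3, 37.8, 78.5, 128, 144 and 356 CPM of Jun. Mouse 2 had 41.7, 25.2, 39.4, 101, 59.5 and 144 CPM. Mouse 3 had 18.6, 21.9, 63.0, 174, 175 and 222 CPM, and mouse 4 had 11.9, 13.0, 39.5, 105, 75.6 and 158 CPM. V1 and V2 were low in every mouse, the level was higher in V4 than in V3 in 4 of 4 mice, and V6 was the highest zone in 4 of 4. The V1 and V6 libraries did not overlap. The zone means went from 24.4 ± 12.8 CPM in V1 to 220.2 ± 97.0 CPM in V6 (SD, n = 4). Fitted by edgeR, Jun was 9.0-fold higher in V6 (log2 difference 3.17 ± 0.42 SE, adjusted p = 6.0e-06), and within single mice the ratio ran from 3.43 to 13.8. The slope was 0.68 ± 0.070 (SE) on the log2 scale per zone (adjusted p = 1.6e-07).

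The start of Jun is shown because the gene rose most steeply among the Jun family members, and because its own product is known to act there. The sequence is RefSeq's on build GRCm38.p6, chr4:95052173-95052372, minus strand, from 150 bases before to 50 bases after the annotated start. Capitals mark TGACATCA, a CRE-like element known from the JUN promoter, whose first base is at position -45 from the start.
Jun promoter: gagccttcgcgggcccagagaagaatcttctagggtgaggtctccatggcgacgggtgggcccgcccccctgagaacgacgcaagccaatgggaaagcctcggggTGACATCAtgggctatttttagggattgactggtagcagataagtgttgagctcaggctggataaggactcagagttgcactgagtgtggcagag
Of the 9 genes, 7 were matched to a RefSeq promoter of 300 bases (250 before and 50 after the start), and Egr1 and Ier2 were not. The RefSeq start of Jund lies upstream of that in GENCODE M21. Those of Atf3 and Zfp36 lie inside the GENCODE M21 gene. The printed part of the Atf3 window spans 191183284 to 191183483, while the gene, on the minus strand, reaches 191218039. Matches in these windows therefore do not describe the GENCODE M21 starts of the 3 genes. TGACATCA, read on both strands, was found in Jun alone of these 7, and in 3.62% of all 32851 promoters of that length. Neither the TPA response element TGACTCA nor the full CRE TGACGTCA was found in any of the 7, against 5.20% and 1.79% of all promoters. These are matches of letters within the window.

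Junb encodes JUNB, a Jun family subunit that activates more weakly than c-JUN and can oppose it. Its position is 84974484 to 84978718 on chromosome 8, minus strand. In V1 the 4 mice had 147, 157, 109 and 97.5 CPM of Junb, and in V6 they had 413, 276, 359 and 252 CPM. The 2 zones did not overlap, and V6 was the highest zone in 3 of 4 mice. Junb was 2.54-fold higher in V6 than in V1 (log2 difference 1.35 ± 0.17 SE, adjusted p = 2.9e-06), with ratios within mice between 1.75 and 3.27. Its slope was 0.27 ± 0.029 (SE) per zone (adjusted p = 1.5e-07), and its zone means from V1 to V6 were 128 ± 28.7, 143 ± 17.4, 189 ± 23.2, 249.7 ± 35.2, 242 ± 30.1 and 325 ± 74.6 CPM (SD, n = 4). The end of Junb overlaps that of Prdx2 on the opposite strand. Whether the counting used strand is not given in the sources used here, so reads from that overlap cannot be assigned with certainty. Prdx2 had 8090 UMIs in all and a slope of -0.024 ± 0.020 (SE) per zone (adjusted p = 0.350).

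Jund encodes JUND, the Jun family member that is expressed more steadily than the others in resting cells. The gene spans 70698949 to 70700616 of chromosome 8, plus strand. In V1 the 4 mice had 185, 145, 77.3 and 70.2 CPM of Jund, and in V6 they had 248.8, 192, 120.2 and 123 CPM. The zones overlapped, with mice 1 and 2 above mice 3 and 4 in both, and V6 was above V1 in 4 of 4 mice, by 1.32-fold to 1.75-fold. The slope was 0.11 ± 0.054 (SE) per zone, which did not pass (adjusted p = 0.0970). With the mouse as a block it was 0.12 and passed (adjusted p = 4.0e-05). The difference between V6 and V1 was 0.52 ± 0.32 (SE) on the log2 scale (adjusted p = 0.205), and 0.55 with the block (adjusted p = 0.000817). Differences between mice held 66.2% of the variance of log2 CPM for Jund and zones 22.6%. Without the V1 library of mouse 1, the slope was 0.15 (adjusted p = 0.0282).

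Fos encodes c-FOS, which does not pair with itself and binds DNA together with a Jun protein. Its position is 85473890 to 85477273 on chromosome 12, plus strand. Mouse 1 had 39.5, 78.7, 163, 208, 201 and 358 CPM of Fos from V1 to V6. Mouse 2 had 92.1, 65.7, 101, 148, 120.2 and 186 CPM. Mouse 3 had 48.9, 50.7, 85.0, 154, 199.6 and 199 CPM, and mouse 4 had 35.7, 54.5, 83.0, 169, 121 and 137 CPM. Every library of V4, V5 and V6 lay above every V1 library, and the highest zone was V6 in mice 1 and 2, V5 in mouse 3 and V4 in mouse 4. Fos was 4.07-fold higher in V6 than in V1 (log2 difference 2.03 ± 0.31 SE, adjusted p = 2.7e-05), from 54.0 ± 26.0 to 220.1 ± 95.5 CPM (SD, n = 4). The slope was 0.42 ± 0.052 (SE) per zone (adjusted p = 1.0e-06). Over V3 to V6 alone it was 0.30 and did not pass (adjusted p = 0.116).

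The Fos start is shown beside that of Jun because the 2 products form the AP-1 pair, and the letters differ. It is RefSeq's on build GRCm38.p6, chr12:85473740-85473939, plus strand. Capitals mark TGACG, the short core of the CRE, whose first bases are at positions -129 and -66.
Fos promoter: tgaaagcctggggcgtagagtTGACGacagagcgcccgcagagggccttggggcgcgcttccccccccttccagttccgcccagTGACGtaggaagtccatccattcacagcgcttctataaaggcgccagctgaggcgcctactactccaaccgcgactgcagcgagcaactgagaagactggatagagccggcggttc
The core TGACG was added to the search after the sequences had been read, and the full CRE contains it. It was found on either strand in the promoters of Junb, Fos, Fosb and Atf3, 4 of the 7, and in 20.8% of all promoters. The sequence TATAAA, read on the gene's strand only, was found in Junb and Fos and in 8.32% of all promoters. Its first base is at position -33 in Fos, but at position 1 in Junb, at the RefSeq start and not before it. The GC box GGGCGG was found on either strand in 5 of the 7, all but Junb and Jund, and in 35.7% of all.

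Fosb encodes FOSB, a Fos family subunit whose transcript appears after stimulation like that of Fos. The gene spans 19302696 to 19310051 of chromosome 7, minus strand, and had 292 UMIs in all. From V1 to V6, mouse 1 had 6, 8, 9, 19, 34 and 67 UMIs of Fosb. Mouse 2 had 3, 2, 4, 7, 8 and 13 UMIs. Mouse 3 had 2, 1, 1, 20, 26 and 37 UMIs, and mouse 4 had 2, 0, 0, 3, 4 and 16 UMIs. All 12 libraries of V1 to V3 held 9 UMIs or fewer, and V6 was the highest zone in 4 of 4 mice. The filter on low counts was therefore passed only through V4 to V6, the zones where Fosb is high. A count of 0 allows up to 1.62 CPM in V2 and 2.37 CPM in V3 of mouse 4, at 3 UMIs a library and for counting error only. In CPM, Fosb went from 1.83 ± 0.922 in V1 to 1.98 ± 2.07 in V3, 9.34 ± 5.61 in V4 and 22.1 ± 14.4 in V6 (SD, n = 4). It was 11.5-fold higher in V6 than in V1 (log2 difference 3.53 ± 0.67 SE, adjusted p = 3.2e-04), and the slope was 0.81 ± 0.12 (SE) per zone (adjusted p = 8.2e-06).

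Atf3 encodes a bZIP factor of the ATF/CREB family that is induced by many stresses, pairs with Jun proteins and, as a pair with itself, represses transcription. Its position is 191170296 to 191218039 on chromosome 1, minus strand. Mouse 1 had 88.5, 57.2, 57.7, 72.3, 86.0 and 204 CPM of Atf3 from V1 to V6. Mouse 2 had 8.58, 8.003, 17.9, 42.3, 37.5 and 85.7 CPM. Mouse 3 had 39.0, 28.7, 28.3, 57.5, 71.8 and 115 CPM, and mouse 4 had 5.95, 9.18, 7.11, 30.0, 34.4 and 90.6 CPM. V6 was the highest zone in 4 of 4 mice, while the level in V1 differed between mice so much that mouse 1 in V1 lay above mouse 2 in V6. Over all zones mouse 1 was 4.51-fold above mouse 4, and differences between mice held 40.8% of the variance of log2 CPM beside 48.4% for zones. The slope was 0.38 ± 0.12 (SE) per zone (adjusted p = 0.0153) and with the mouse as a block 0.43 (adjusted p = 6.9e-06). The V6 minus V1 difference was 1.79 ± 0.71 (SE) on the log2 scale and did not pass (adjusted p = 0.0506), while with the block it was 2.06 and passed (adjusted p = 6.0e-05). Without V6 the slope was 0.24 (adjusted p = 0.246). Without mouse 2 it was 0.33 (adjusted p = 0.0736), and without mouse 3 it was 0.38 (adjusted p = 0.0962).

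Egr1 encodes a zinc finger transcription factor outside AP-1 that is induced by the same mitogen and stress signals. The gene spans 34859823 to 34864984 of chromosome 18, plus strand, and had 473 UMIs in all. Mouse 1 had 4.74, 8.36, 10.9, 13.5, 10.8 and 49.3 CPM of Egr1 from V1 to V6. Mouse 2 had 20.6, 10.9, 9.23, 8.94, 16.5 and 26.9 CPM. Mouse 3 had 5.57, 5.30, 5.51, 17.2, 17.7 and 25.5 CPM, and mouse 4 had 5.95, 5.40, 3.16, 12.3, 2.02 and 16.3 CPM. V6 was the highest zone in 4 of 4 mice, the other zones showed no common order, and mouse 2 in V1 lay above mouse 4 in V6. The difference between V6 and V1 was 1.68 ± 0.47 (SE) on the log2 scale (adjusted p = 0.00741), and the slope was 0.31 ± 0.082 (SE) per zone (adjusted p = 0.00360). That slope rested on the tip: over V1 to V5 it was 0.14 (adjusted p = 0.331). Without mouse 1 it was 0.24 (adjusted p = 0.0758) and without mouse 3 0.26 (adjusted p = 0.0559).

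Ier2 encodes a small nuclear protein that is induced by growth factors and is not a bZIP factor. Its position is 84661331 to 84662852 on chromosome 8, minus strand. Mouse 1 had 154, 96.3, 101, 118, 108 and 141 CPM of Ier2 from V1 to V6. Mouse 2 had 206, 136, 143, 121, 141 and 115 CPM. Mouse 3 had 119, 95.3, 76.4, 73.1, 102 and 94.8 CPM, and mouse 4 had 116, 86.4, 82.2, 88.5, 94.4 and 113 CPM. V1 was the highest zone in 4 of 4 mice, unlike every other member, and the 2 ends of the villus overlapped. The zone mean was 149 ± 41.9 CPM in V1 and lay between 100.05 and 116 CPM in the other zones. The slope over the whole villus was -0.043 ± 0.037 (SE) per zone (adjusted p = 0.356), and the V6 minus V1 difference was -0.36 ± 0.22 (SE) on the log2 scale (adjusted p = 0.193). With the mouse as a block, V2 was lower than V1 by a log2 difference of -0.51 (adjusted p = 0.00424), and V6 lower than V1 by -0.32 (adjusted p = 0.0286). When libraries were scaled by total UMIs in place of TMM, the slope was -0.11 and passed (adjusted p = 0.0227). That scaling moved the median slope of all genes to -0.071.

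Zfp36 encodes tristetraprolin, a zinc finger protein that is no transcription factor: it binds AU-rich elements in messenger RNAs and speeds their decay, its own and that of Fos among those described. The gene spans 28376784 to 28380253 of chromosome 7, minus strand. Mouse 1 had 41.6, 80.5, 112, 146, 157 and 335 CPM of Zfp36 from V1 to V6. Mouse 2 had 55.5, 52.0, 72.0, 129, 128 and 175 CPM. Mouse 3 had 57.5, 84.7, 100.01, 165, 191 and 202 CPM, and mouse 4 had 44.0, 85.8, 106, 144, 97.1 and 164 CPM. Every library of V3 to V6 lay above every V1 library, and V6 was the highest zone in 4 of 4 mice. Zfp36 was 4.41-fold higher in V6 than in V1 (log2 difference 2.14 ± 0.23 SE, adjusted p = 2.4e-07), and its slope of 0.40 ± 0.039 (SE) per zone had the smallest adjusted p of the 9 (2.2e-08). Zones held 85.0% of the variance of its log2 CPM and mice 5.29%.

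The start of Zfp36 is shown because, of the 7 promoter windows searched, it alone held a CArG box. That box is the site of serum response factor, which drives many immediate early genes. The search reached from 250 bases before to 50 bases after the RefSeq start. A CArG box farther upstream, in Fos or any other of the 7, would not have been found. The Jund window lay wholly upstream of the gene's start in GENCODE M21, and the windows of Atf3 and Zfp36 lay inside their genes. The GENCODE M21 gene of Zfp36 starts at 28380253. The Zfp36 sequence is RefSeq's on build GRCm38.p6, chr7:28379179-28379378, minus strand, with the CArG box in capitals, its first base at position -58.
Zfp36 promoter: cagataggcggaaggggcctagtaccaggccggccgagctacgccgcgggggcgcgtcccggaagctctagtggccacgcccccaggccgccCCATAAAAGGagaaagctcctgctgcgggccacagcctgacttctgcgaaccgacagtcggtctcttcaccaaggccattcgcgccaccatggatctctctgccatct
A CArG box was found in 1.63% of all promoters. The EGR1 element GCGNGGGCG was found on either strand in Fosb and Zfp36, and in 5.55% of all promoters.

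The element that tristetraprolin binds is shown for Fos and Zfp36, whose slopes were 0.42 and 0.40 per zone. Capitals mark the nonamer TTATTTATT in the 3' untranslated region (GENCODE M21 on GRCm38), with the Fos site at chr12:85477105-85477129 on the plus strand and the Zfp36 site at chr7:28376953-28376977 on the minus strand.
Fos AU-rich site: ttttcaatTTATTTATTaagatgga
Zfp36 AU-rich site: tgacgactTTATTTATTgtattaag
The nonamer was found in these 2 of the 9 genes, and in 7.23% of the 8424 tested genes with an annotated 3' untranslated region. The shorter AU-rich pentamer ATTTA, which the nonamer contains, was found 4 times in Jun, 2 in Junb, 1 in Jund, 4 in Fos, 1 in Fosb, 3 in Atf3, 2 in Egr1 and 3 in Zfp36. Ier2 had none. At least 3 copies were found in 36.4% of tested genes, and in 23.7% of those whose untranslated region had 500 to 1500 bases.

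The steepness of the rise differed among the 9 genes. For each pair, the slope of the log2 ratio of the 2 transcripts was tested by a two-sided permutation test, shuffling zones within mice (100000 resamples), and 26 of the 36 pairs passed after Benjamini-Hochberg adjustment over the 36. Jun rose more steeply than Junb by 0.41 per zone and than Fos by 0.25, in 4 of 4 mice each (permutation test, adjusted p = 3.6e-05 and 6.0e-05). Jun also rose more steeply than Zfp36 by 0.28 per zone (permutation test, adjusted p = 0.000315). The slope of Junb exceeded that of Jund by 0.15 per zone in 4 of 4 mice (permutation test, adjusted p = 3.6e-05). Fosb was steeper than Fos by 0.32 (permutation test, adjusted p = 0.0110). Ier2 differed from each of the other 8. The slopes of Jun and Fosb differed by -0.071, with single mice between -0.19 and 0.073, and did not pass (permutation test, adjusted p = 0.494). Those of Fos and Zfp36 differed by 0.033, with single mice between -0.13 and 0.11, and did not pass either (permutation test, adjusted p = 0.415). The value of 3.6e-05 belongs to an unadjusted p of 1e-05, the smallest that 100000 resamples can give.

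**Figure D2:**
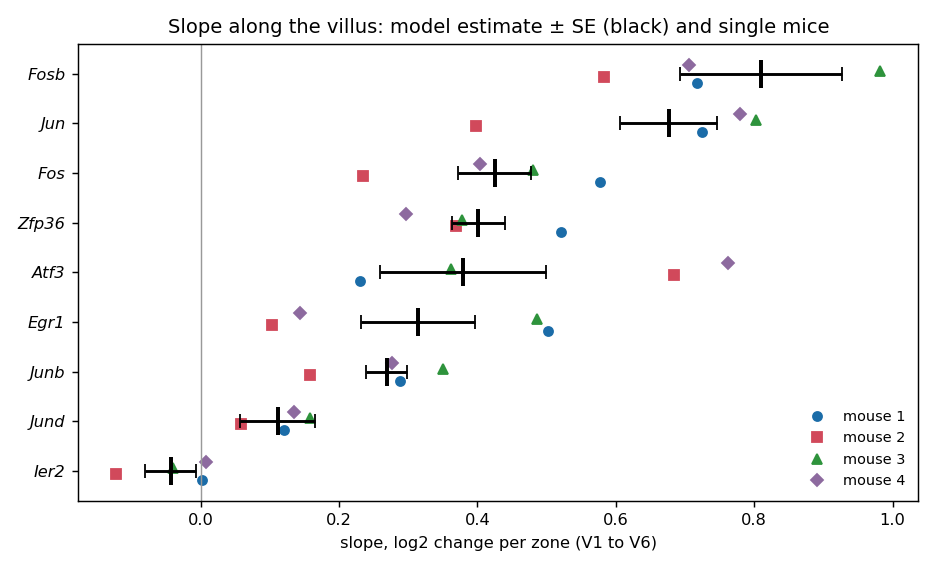
Slope of each transcript over V1 to V6 (horizontal axis, log2 change per zone), with black points and bars for the model estimate ± SE over 24 libraries and coloured markers for the slope within each of the 4 mice. Fosb and Jun have the steepest slopes at 0.81 and 0.68, Ier2 lies at -0.043, and only for Ier2 do single mice lie on both sides of 0.

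The villus was then taken in a lower and an upper part. In the lower part, V1 to V3, the slope passed for Jun (0.59 per zone, adjusted p = 0.0482), Junb (0.28, adjusted p = 0.0230), Fos (0.50, adjusted p = 0.0235) and Zfp36 (0.49, adjusted p = 0.00415), which makes 4 of 9 beside 11.5% of all genes rising there, and no member fell, beside 8.32% of all genes. Fosb, Atf3 and Egr1 had slopes of 0.12, -0.16 and -0.15 there and did not pass. The slope of Ier2 was -0.28 (adjusted p = 0.0719), and with the mouse as a block it passed (adjusted p = 0.000510), beside 17.6% of all genes falling there with the block. Only 1 of the 9 passed without mouse 1, without mouse 3 or without mouse 4, and also without the V3 library of mouse 1 or the V1 library of mouse 4. There were 2 without the V1 library of mouse 1 or the V3 library of mouse 3, and without the V1 library of mouse 3 there was 1 that rose and 1 that fell. Scaled by total UMIs, 2 rose and 1 fell.

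In the upper part, V4 to V6, none of the 9 passed with edgeR, DESeq2 or limma-voom, 5 had an unadjusted p under 0.05 with edgeR, beside 4.36% of all genes with such a p and 0.45% that passed there. With the mouse as a block Fosb passed, with a slope of 0.63 per zone (adjusted p = 0.0238), beside 1.42% of all genes that passed with the block. The median of the 9 slopes was 0.29 in the upper part and 0.12 in the lower. Atf3, Egr1 and Fosb had upper slopes of 0.63, 0.59 and 0.60 per zone. The difference between the upper and lower slope passed for none of the 9 with edgeR, DESeq2 or limma-voom, beside 7.83% of all genes either way with edgeR. An unadjusted p under 0.05 was had by 2 of the 9 and by 22.2% of all genes, so the 9 stood near the share of all genes. With the block it passed for Atf3 (0.78, adjusted p = 0.0351) and Ier2 (0.40, adjusted p = 0.00117), and 23.0% of all genes passed with the block, again near the share among the 9.

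Between neighbouring zones, none of the 9 passed in any of the 5 steps with edgeR, DESeq2 or limma-voom. With edgeR, 2, 3, 5, 0 and 4 of the 9 had an unadjusted p under 0.05 in the steps from V1 to V2, V2 to V3, V3 to V4, V4 to V5 and V5 to V6, and so did 14.1%, 8.51%, 7.28%, 1.83% and 4.90% of all genes. The shares of all genes that passed after adjustment were 1.51%, 0.289%, 0.0643%, 0.0% and 0.268%. The median log2 step of the 9 genes was -0.16, 0.36, 0.65, -0.047 and 0.61 in the same order. From V3 to V4, 7 of the 9 were higher in 4 of 4 mice, all but Egr1 and Ier2. The share of all genes higher in 4 of 4 mice was not determined, so that count has no baseline here. With the mouse as a block, Jun was higher in V4 than in V3 by 1.22 (adjusted p = 0.0439) and Fosb by 2.06 (adjusted p = 0.00923), beside 2.12% of all genes passing this step with the block. From V4 to V5 no gene of the whole table passed with edgeR, DESeq2 or limma-voom, and 171 had an unadjusted p under 0.05 with edgeR. Zfp36 was higher in V2 than in V1 by 0.60 with the block (adjusted p = 0.0367), where with Ier2 it made 2 of 9 beside 14.9% of all genes.

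**Figure D3:**
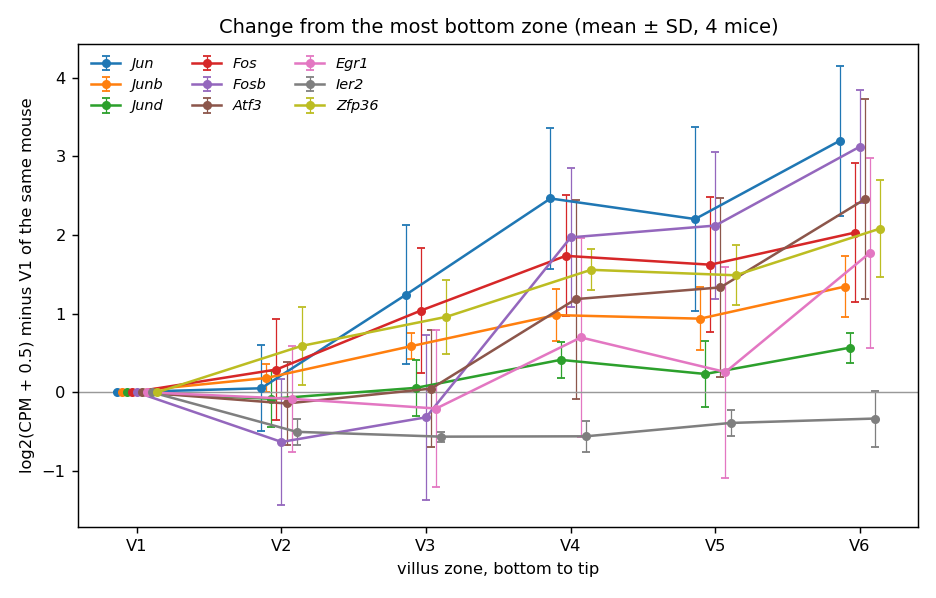
Change of each transcript from the most bottom zone of the same mouse (vertical axis, log2(CPM + 0.5) minus the V1 value, mean ± SD of 4 mice) in the zones V1 to V6 (horizontal axis). Jun, Fos and Zfp36 are above V1 by V3 at 1.24, 1.04 and 0.96, Fosb and Atf3 are near or below V1 until V3, and Ier2 stays below V1.

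Correlations between the 9 transcripts were taken across the 24 libraries. Among the 28 pairs without Ier2, Pearson's r of log2 CPM ran from 0.40 to 0.95 with a median of 0.69. The 8 pairs with Ier2 had r between -0.31 and 0.52. With the zone and mouse means removed, the median r of all 36 pairs was 0.24, and 26 were above 0. The 8 pairs with Ier2 then had a median of 0.27, with 7 above 0, while Atf3 was below 0 with 7 of the other 8, down to -0.44 with Egr1 and -0.43 with Fos. These values are a description: the libraries share 6 zones, 4 mice and a scaling. The tested genes most like the mean log2 CPM of the 9, among 2484 with a mean of at least 50 CPM, were Pgm1 (r = 0.97), Sfn (0.91), Nt5e (0.91), Cdc42se2 (0.91), Ifrd1 (0.91), Plekhf2 (0.91), Arl14 (0.90) and Sbds (0.90), over the 24 libraries. Nt5e encodes CD73, by which the cells were sorted. Pgm1 encodes phosphoglucomutase, and its level went from 53.4 ± 13.3 CPM in V1 to 223 ± 85.5 CPM in V6 (SD, n = 4). Sfn encodes 14-3-3 sigma, and its level went from 108 ± 12.5 CPM to 586 ± 108 CPM (SD, n = 4).

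Other genes of the same response were examined in 6 lists, by the same slope test. By it, 22.1% of all genes tested rose and 22.8% fell. Of 26 tested immediate early genes outside the 9, 18 rose and 1 fell, with a median slope of 0.17 per zone beside -0.0047 for all genes. The receptor inhibitor Errfi1 rose by 0.37 ± 0.034 per zone (SE, adjusted p = 9.5e-09) and the survival gene Mcl1 by 0.28 ± 0.030 (adjusted p = 1.0e-07). Klf6, a zinc finger factor, went from 58.6 ± 19.9 CPM in V1 to 278 ± 113 CPM in V6, and the antiproliferative gene Btg2 from 23.5 ± 6.59 to 105 ± 59.5 CPM (SD, n = 4), and both rose. Nfkbia, which encodes an inhibitor of NF-kappa B and had the highest mean CPM of the list (a level of 3' end counts, which do not scale with transcript length), rose by 0.17 ± 0.061 per zone (SE, adjusted p = 0.0319). Myc, named outside the rule because it was the 1 gene that fell, had a slope of -0.39 per zone.

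Of 16 other AP-1 and related bZIP genes, 7 rose and 1, Atf5, fell, beside 22.1% of all genes rising and 22.8% falling. The median slope was 0.061. Maf, with the highest mean CPM of the list, rose by 0.34 ± 0.074 per zone (SE, adjusted p = 9.4e-04). The slope of Maf was 1.39 over V1 to V3 (adjusted p = 2.0e-04). Over V4 to V6 it was -0.51 and did not pass (adjusted p = 0.902). The small Maf genes Mafk and Maff rose by 0.24 ± 0.037 and 0.32 ± 0.069. Ddit3, a stress factor of the C/EBP family, rose by 0.25 ± 0.047. Fosl2, the only Fos family gene of this list that was tested, was named outside the rule after its values were seen. It rose by 0.42 per zone (adjusted p = 0.00188).

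Genes that carry the signal to the immediate early genes made the next list, labelled MAP kinases and serum response factors. Besides the MAP kinase pathway it held Elk and receptor genes. Srf, the gene of serum response factor itself, was instead among the other immediate early genes. Of the 21 tested genes of the signalling list, 12 rose and none fell, beside 22.1% and 22.8% of all genes. Their median slope was 0.11. Mapk8, which encodes the Jun kinase JNK1, went from 13.9 ± 3.31 CPM in V1 to 49.1 ± 5.29 CPM in V6 (SD, n = 4) and rose by 0.34 ± 0.038 per zone (SE, adjusted p = 2.1e-07). The MAP kinase kinases Map2k1, Map2k2 and Map2k3 rose by 0.20 ± 0.030, 0.17 ± 0.035 and 0.11 ± 0.023, and the receptor gene Egfr by 0.33 ± 0.066. Of 8 tested feedback phosphatases and inhibitors, 5 rose and 1 fell, beside the same shares of all genes, with a median slope of 0.21. Dusp1, Dusp5 and Dusp6, which encode phosphatases of MAP kinases, rose by 0.45 ± 0.085, 0.28 ± 0.042 and 0.46 ± 0.069. Spry1, an inhibitor of receptor signalling, fell, with a slope of -0.53 ± 0.096 (SE, adjusted p = 1.0e-04).

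Of 17 genes of the tristetraprolin family and of messenger RNA decay, 2 rose and 3 fell, and the median slope was -0.032. Both counts were below the shares of all genes, 22.1% rising and 22.8% falling. Zfp36l1, the gene of a related protein, fell, its level going from 27.3 ± 6.81 to 14.8 ± 4.45 CPM between the ends (SD, n = 4) and its slope being -0.16 ± 0.045 (SE, adjusted p = 0.00730). The deadenylase gene Parn and the AU-rich element binder Hnrnpd fell too, with slopes of -0.17 ± 0.055 and -0.13 ± 0.047. The RNase gene Zc3h12a rose by 0.12 ± 0.049 (adjusted p = 0.0431). Elavl1, which encodes the stabilising protein HuR and had the highest mean CPM of the list, showed a slope of -0.10 ± 0.042 and did not pass (adjusted p = 0.0506).

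Heat shock genes, which together with immediate early genes are known to respond when tissue is dissociated, were set beside them. The 15 heat shock and metallothionein genes had sums of 2621 ± 453 CPM at the bottom and 2551 ± 349 CPM at the tip (SD, n = 4), and the ranges of the 2 zones overlapped. Of the 11 that were tested, 3 rose and 3 fell, with a median slope of -0.054. Both counts were near the shares of all genes, 22.1% rising and 22.8% falling. Hspe1 and Hspd1, which encode the mitochondrial chaperonin, fell with slopes of -0.23 ± 0.034 and -0.22 ± 0.046. Dnajb1, a cochaperone gene, rose by 0.22 ± 0.036 per zone. The inducible Hspa1a and Hspa1b held 64 and 151 UMIs over all 24 libraries. The part of cell isolation in the levels of the 9 genes was not tested.

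**Figure D4:**
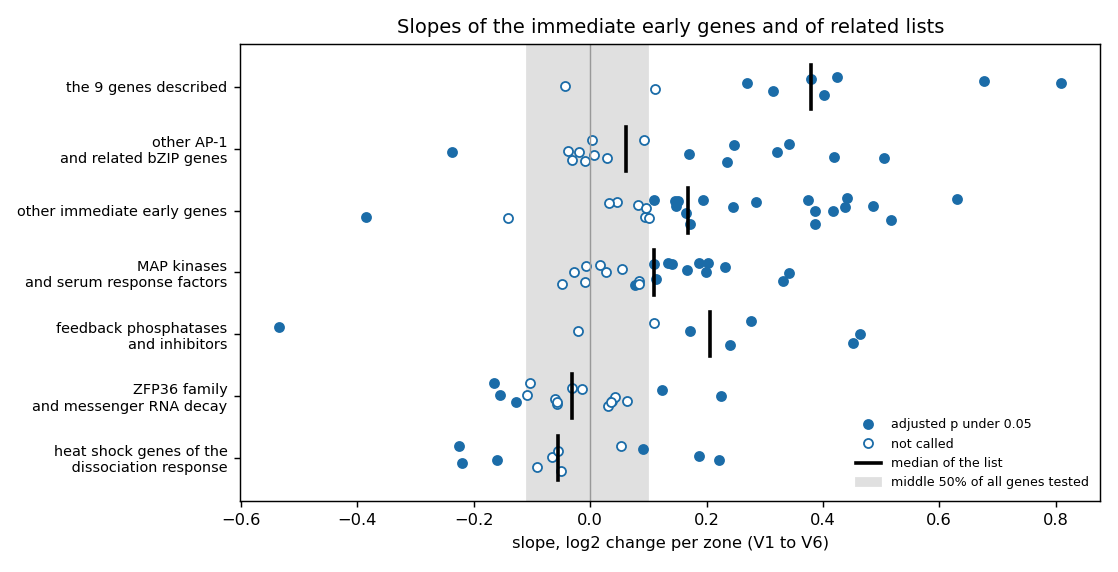
Slope over V1 to V6 (horizontal axis, log2 change per zone) of each tested gene of the 9 described and of the 6 lists (vertical axis), with filled points for an adjusted p under 0.05, open points otherwise, black bars for list medians and grey for the middle 50% of all genes tested, from -0.11 to 0.099. The median of the 9 genes is 0.38, that of the other immediate early genes 0.17, and that of the heat shock genes -0.054.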

How the data were processed

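The data were raw UMI counts per gene, deposited by the authors as 1 table of 24 libraries and not normalized. The submitters' processing notes name bcl2fastq 2.15.0.4 and GRCm38. As to aligner, annotation and use of strand, each is not given in the sources used here. There were 17811 genes, and libraries held 806541 to 2266261 UMIs, with a median of 1502948.5. At this depth a count of 3 UMIs corresponded to 1.62 and 2.37 CPM in the libraries where Fosb was at 0.

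The main analysis used edgeR 4.0.16 in R 4.3.3: TMM scaling, filterByExpr by zone (minimum count 10, minimum total 15, 9328 genes left), and a robust quasi-likelihood fit of zone means to the 24 libraries together (18 residual degrees of freedom). Contrasts gave the slope per zone with zones equally spaced, V6 minus V1, the slopes over V1 to V3 and V4 to V6, their difference and each step. The Benjamini-Hochberg threshold was 0.05 over all genes tested. CPM values were TMM-scaled, and log2 values of single libraries used a pseudocount of 0.5 CPM. Folds are fitted values unless given for single mice. Of the contrasts, only the slope over V1 to V6 was tested on simulated data, with counts drawn independently for each library. Python 3.11.15 with numpy 2.4.6, pandas 2.3.3, scipy 1.17.1 and matplotlib 3.10.9 served for the rest.

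Mouse numbers pair the zones of an animal. Deviations from zone means correlated in 60 of 60 same-mouse pairs above 0.1 (lowest 0.18, mean 0.41, mean between mice -0.14). The fit with the mouse as a replicate block was an alternative (15 residual degrees of freedom). Other alternatives were other scalings and filters, DESeq2 1.42.0, limma-voom (limma 3.58.1), fewer zones, and leaving out a mouse or a library.

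The 9 genes and the lists were chosen with earlier results of these data known. The rule for naming took all 9, and up to 4 genes of each list with the smallest adjusted p plus that of the highest mean CPM. It also took the 8 genes of mean 50 CPM or more and no provisional name that correlated best with the mean of the 9. A few of the list genes so chosen are not reported here. Of the table's identifiers, 17741 matched GENCODE M21. Promoters came from RefSeq (GRCm38.p6).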

Additional observations from a re-analysis of the deposited data

Results flagged for a closer look

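Among 4 mice in each of 6 zones, 2 of 54 groups of values (9 genes in 6 zones) held a library set far apart from the other 3, a gap that chance gives in about 1 in 20 groups. In V1, mouse 2 had 20.6 CPM of Egr1, while the other mice had between 4.74 and 5.95 CPM. That library held 36 UMIs of Egr1 and carried the i7 barcode of mouse 1, read here as a pool label. In V2, mouse 2 had 52.0 CPM of Zfp36, while the other mice had between 80.5 and 85.8 CPM.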

How the results depend on the processing

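Jun, Junb and Zfp36 kept their rise under all alternatives run, and the slopes of Jun ran from 0.63 to 0.77 on leaving out a mouse or a library. Of the 9 genes, 5 to 7 rose on leaving out a mouse and 7 to 8 on leaving out a library, and 6 and 6 to 7 were higher in V6 than in V1. The lower slope passed for 1 to 5 genes without a mouse and 1 to 4 without a library, the difference between upper and lower slope for 0 and 0 to 1. Differences in slope passed in 23 to 27 of 36 pairs. With the mouse as a replicate block, 1 of the 9 passed over V4 to V6 and 2 each in the upper minus lower slope, the step from V1 to V2 and that from V3 to V4, against 0 without it, and no call of the 9 genes was lost with it. Over all genes, the block raised the calls over V1 to V3 from 1846 to 3509, over V4 to V6 from 42 to 132 and for upper minus lower from 730 to 2144.

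Over V4 to V6, 65 genes passed with no filter and 66 with DESeq2. With a mean of at least 50 CPM, which removes Fosb and Egr1, 1691 genes passed for the slope (4189 otherwise), 1578 for V6 minus V1 (3619 otherwise), 1126 over V1 to V3 and 20 over V4 to V6. Over V2 to V6 1145 genes passed, and over V3 to V6 238, or 608 with the block. Leaving out a mouse gave 2803 to 3656 calls for the slope, 2240 to 3076 for V6 minus V1, 815 to 1641 over V1 to V3, 25 to 43 over V4 to V6 and 271 to 612 for upper minus lower. Leaving out a library gave 3619 to 4358 for the slope, 2833 to 3714 for V6 minus V1, 512 to 934 for upper minus lower, 1150 to 2239 over V1 to V3 and 27 to 49 over V4 to V6. The cause of these shifts was not tested beyond the smaller number of genes or samples. Total UMI scaling gave 1217 genes rising and 3720 falling for the slope and 1152 higher and 3102 lower in V6, and moved the all-gene median of V6 minus V1 to -0.34. Depth limits Fosb, with 0 to 9 UMIs in V1 to V3, and Egr1.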
